A study of Mus musculus with 3 samples.

Results

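Cycling cells of the ovarian surface epithelium were examined in thawed fetal ovarian somatic cells (FOSCs). They were chosen cell by cell from the unique molecular identifiers (UMIs, 1 per captured transcript molecule). A member had at least 1 UMI of Upk3b, at least 1 UMI of any of Krt7, Krt19 and Tm4sf5, fewer than 5 UMIs of the germ cell gene Dazl, and a UMI of at least 2 of the 5 cycle genes Top2a, Mki67, Ube2c, Ccnb1 and Cdc20. This rule gave 2874 members among the 5211 cells of the epithelial gate and the 28971 cells kept from all libraries, with 853 members in lot 26, 821 in lot 29 and 1200 in lot 30. The remaining 2337 cells of the gate had fewer than 2 cycle genes and are called non-cycling, with 667, 717 and 953 cells in the same order of lots.

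Each lot was 1 frozen pool of cells dissociated from fetal CD1 mouse ovaries at E12.5, collected from the litters of 10 dams, with the mesonephros cut away. The paper found a few contaminating Sertoli cells, of testis identity, in every lot, so the pools were not purely ovarian. Germ cells and endothelial cells had been depleted with magnetic beads against SSEA1 and CD31, which leaves some of them behind. All lots are untreated samples of 1 condition, profiled after thaw by 10X Genomics 3′ scRNA-seq, so no treatment or genotype was compared. The lots are the replicates (n = 3) and individual cells are not. A lot pools many embryos, so p-values of fits with no term for the lot measure the spread between 3 pools. With the lot as a block, they measure how the difference within a lot varies over the same 3 pools. Lot 29 was the shallowest, with a median of 8949 UMIs per kept cell against 11126 in lot 26 and 11595 in lot 30.

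The ovarian surface epithelium is the mesothelial layer that covers the gonad and is continuous with the lining of the body cavity. In the fetal mouse ovary its dividing cells can leave the surface and contribute pre-granulosa cells, the supporting cells that later enclose the oocytes. A dividing cell copies its DNA in S phase under E2F transcription factors and packs it with newly made histones. It then turns on a G2 and M phase program of kinases, kinesins and kinetochore proteins. Many of these genes are controlled through CHR elements in their promoters by the DREAM, MYBL2 and FOXM1 complexes. Their promoters often hold CCAAT elements as well.

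Promoters of 5 mitotic genes and of the replication licensing gene Mcm6 are shown because these 2 programs separate the members among themselves, as described with the values of Ung, Mcm6 and the late genes. Each is the RefSeq sequence from 250 bases before to 50 bases after the gene's start (GRCm38.p6), printed 5′ to 3′ on the strand of the gene, and capitals mark matches on either strand to the letters TTTGAA, to the letters CCAAT (printed as ATTGG where the match is on the other strand) and to TTTGGCGC. Cdk1 lies at chr10:69352863-69353162 (minus strand), Ccnb2 at chr9:70421505-70421804 (minus), Plk1 at chr7:122159185-122159484 (plus), Hmmr at chr11:40733388-40733687 (minus), Cenpf at chr1:189688037-189688336 (minus) and Mcm6 at chr1:128359656-128359955 (minus).
Cdk1: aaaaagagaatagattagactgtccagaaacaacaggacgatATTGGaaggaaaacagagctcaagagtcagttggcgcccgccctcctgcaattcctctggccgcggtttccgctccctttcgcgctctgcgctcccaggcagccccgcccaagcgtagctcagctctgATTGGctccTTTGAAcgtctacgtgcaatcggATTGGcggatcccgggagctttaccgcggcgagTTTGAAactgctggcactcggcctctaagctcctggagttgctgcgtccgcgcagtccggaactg
Ccnb2: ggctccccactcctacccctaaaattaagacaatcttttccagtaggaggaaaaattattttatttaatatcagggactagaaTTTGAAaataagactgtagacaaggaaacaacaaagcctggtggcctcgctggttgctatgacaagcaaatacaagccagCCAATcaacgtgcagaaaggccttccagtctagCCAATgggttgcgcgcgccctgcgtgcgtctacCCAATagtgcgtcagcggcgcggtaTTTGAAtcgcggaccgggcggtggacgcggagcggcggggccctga
Plk1: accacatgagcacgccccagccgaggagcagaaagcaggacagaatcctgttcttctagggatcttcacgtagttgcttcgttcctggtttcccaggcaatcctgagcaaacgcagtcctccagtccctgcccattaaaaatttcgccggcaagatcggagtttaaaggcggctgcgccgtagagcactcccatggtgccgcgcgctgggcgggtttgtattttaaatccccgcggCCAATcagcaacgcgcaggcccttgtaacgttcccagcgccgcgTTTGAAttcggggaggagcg
Hmmr: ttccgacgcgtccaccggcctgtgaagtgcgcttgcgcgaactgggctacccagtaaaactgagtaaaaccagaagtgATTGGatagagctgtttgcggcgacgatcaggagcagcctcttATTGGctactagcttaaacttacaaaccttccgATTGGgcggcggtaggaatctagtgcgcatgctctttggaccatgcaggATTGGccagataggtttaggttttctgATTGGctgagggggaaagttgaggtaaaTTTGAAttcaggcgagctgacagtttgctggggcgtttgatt
Cenpf: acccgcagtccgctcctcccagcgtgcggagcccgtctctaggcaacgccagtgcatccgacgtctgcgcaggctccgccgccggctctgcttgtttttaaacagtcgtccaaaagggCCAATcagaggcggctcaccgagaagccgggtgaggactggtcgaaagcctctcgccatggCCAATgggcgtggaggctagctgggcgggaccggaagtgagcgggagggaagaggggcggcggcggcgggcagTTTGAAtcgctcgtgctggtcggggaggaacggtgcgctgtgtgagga
Mcm6: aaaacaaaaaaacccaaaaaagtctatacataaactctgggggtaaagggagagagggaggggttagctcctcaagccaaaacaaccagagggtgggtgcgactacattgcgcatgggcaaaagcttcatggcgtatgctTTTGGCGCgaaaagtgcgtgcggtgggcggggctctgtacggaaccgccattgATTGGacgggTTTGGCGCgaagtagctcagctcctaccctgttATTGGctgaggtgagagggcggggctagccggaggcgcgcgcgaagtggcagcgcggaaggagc

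The letters TTTGAA, found in CHR elements, were present on either strand in 49 of the 80 promoters found for the 96 genes of the 5 mitotic lists described with the comparison of cycling and non-cycling cells (61.3%), against 17.9% of all 32851 promoters of this length and 14.1% of the 10193 promoters of genes tested. CCAAT was in 58 of the 80 (72.5%), against 37.4% of all promoters and 43.2% of those of genes tested, and a CCAAT that ended 15 to 40 bases before a TTTGAA was in 19 (23.8%), against 1.02% and 1.17%. In Plk1 the TTTGAA began at position 31 from the start and the CCAAT at position -14, and in Hmmr they began at 9 and -20. Cdk1 and Ccnb2 each held 2 TTTGAA and 3 CCAAT matches. Mcm6 held no TTTGAA, and 2 matches to TTTGGCGC, letters of an E2F element that 0.514% of all promoters and 1.11% of those of genes tested hold. Such matches describe letters in this window and were not tested as binding sites. Promoters were found for fewer than 80% of the genes in the replication, surface epithelium and pre-granulosa lists. The same holds for all 12861 genes tested, so that the shares of these sets are incomplete. With that limit, CCAAT was in 26 of the 42 promoters found for the 55 replication genes (61.9%), so it was not particular to the mitotic lists.

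The values that chose the members are given as a description, in CPM, a gene's counts scaled to a fixed total of the UMIs summed over a class in a lot. Upk3b, a uroplakin of mesothelial surfaces, was at 260 ± 13.8 CPM (SD, n = 3 lots) in members and 286 ± 26.1 in non-cycling cells. The keratin gene Krt19 was at 122 ± 29.4 against 163 ± 24.2 CPM and Krt7 at 180 ± 10.4 against 223 ± 13.2. Top2a, which encodes the topoisomerase that untangles replicated DNA, was at 596 ± 40.7 CPM in members and 19.97 ± 1.39 in non-cycling cells. Ube2c, the ubiquitin-conjugating enzyme of the anaphase-promoting complex, was at 584 ± 62.7 against 11.4 ± 1.37 CPM. All 5 cycle genes had a UMI in 1359 of the members, and 167, 138 and 236 members of lots 26, 29 and 30 sat just inside the threshold with exactly 2 of them.

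Epithelial genes that the gate did not use were checked in the members beside cycling cells of a stromal gate (Tcf21 and Nr2f2 with a UMI, Upk3b at 0, fewer than 5 Dazl UMIs). Krt18, a simple epithelial keratin, was at 226 CPM in members and 34.0 in cycling stromal cells. Bnc1, a transcription factor of mesothelium, was at 40.4 against 5.16 CPM, Lrrn4 at 38.9 against 4.30, and Podxl, a glycoprotein of free cell surfaces, at 210 against 40.9. Cdh1, which encodes E-cadherin, was near 0 in members at 0.850 CPM, whereas Cdh3 was at 46.9. The members thus carried some surface epithelium transcripts that the gate did not use, and they also held Tcf21 at 108 CPM and Nr2f2 at 162, genes of the stromal gate. A list of 16 pre-granulosa genes summed to 1352, 1016 and 1449 CPM in members of lots 26, 29 and 30. The list of 30 surface epithelium genes summed to 1927, 1594 and 1689 CPM. Pre-granulosa cells were not compared in this check.

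Free RNA and doublets enter such gates. Among cells with 5 or more Dazl UMIs, germ cells that should lack Upk3b and the keratins, 6.77%, 2.13% and 7.87% passed the Upk3b and keratin conditions in lots 26, 29 and 30, at median depths of 22388, 18256 and 24068 UMIs, against 17869, 13780 and 18333 in the members. Scrublet called 11.8% of the members of lot 26 doublets, 9.14% in lot 29 and 15.1% in lot 30, and 4.80%, 4.88% and 5.35% of the non-cycling cells. Between 20 and 30 barcodes were shared by any pair of lots, none by all 3, and 1 of them was a member in more than 1 lot.

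The share of epithelial-gate cells that met the cycle rule was similar in the 3 lots. It was 56.1% in lot 26 (exact Clopper-Pearson 95% interval 53.6% to 58.6%), 53.4% in lot 29 (50.9% to 55.9%) and 55.7% in lot 30 (53.6% to 57.8%), a mean of 55.1% ± 1.48 (SD, n = 3). The intervals cover counting error only, and those of all lots overlap. The same cycle rule was met by 44.8% ± 1.82 of stromal-gate cells and by 12.8% ± 2.72 of cells in a pre-granulosa gate (Wnt4 and at least 1 of Bmp2 and Gng13 with a UMI, Upk3b and Tcf21 at 0). The epithelial gate was deeper, at median depths of 14791, 11595.5 and 15141 UMIs against 10329.5, 8743 and 10668 in the stromal gate and 10798, 8731 and 11450 in the pre-granulosa gate.

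Depth moved these shares. After every cell was thinned to 4000 UMIs before all gates, the share was 39.4%, 38.8% and 35.9% in the epithelial gate (mean 38.0% ± 1.83), 34.1% ± 2.40 in the stromal gate and 6.91% ± 1.39 in the pre-granulosa gate. The intervals of the epithelial and stromal gates overlapped in every lot after thinning, and both stayed above those of the pre-granulosa gate in every lot. These shares are set by the rule and were not tested. With 3 of the 5 genes required, the epithelial share was 44.8%, and without called doublets it was 53.2%.

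**Figure D1:**
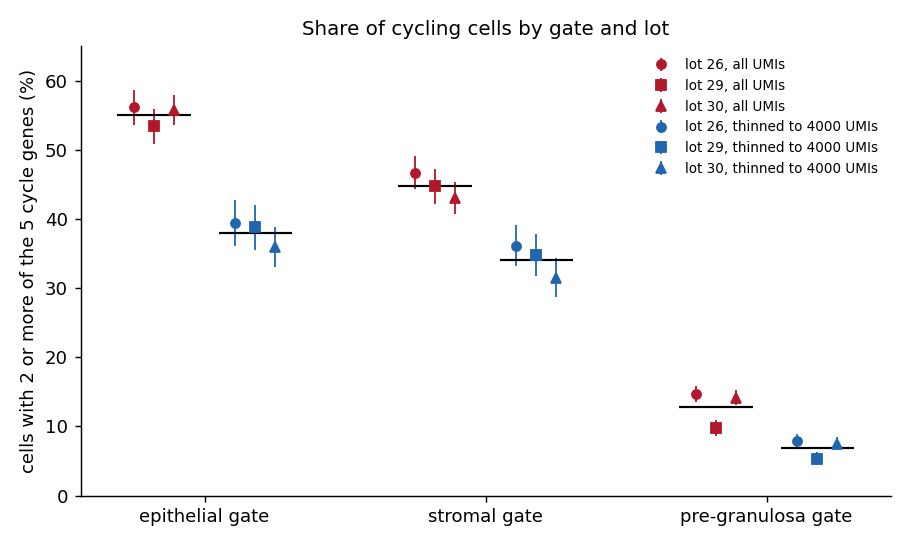
Percent of cells with a UMI of at least 2 of the 5 cycle genes (vertical axis) in the epithelial, stromal and pre-granulosa gates, by lot (marker shape), with all UMIs (red) and after thinning to 4000 UMIs per cell (blue). Bars on points are exact 95% intervals and horizontal lines are means of 3 lots, 55.1% and 38.0% in the epithelial gate against 12.8% and 6.91% in the pre-granulosa gate.

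Members were the larger libraries of the gate. Their median was 17869 UMIs in lot 26, 13780 in lot 29 and 18333 in lot 30, against 12493, 9587 and 12599 in the non-cycling cells. The ratio of medians was 1.44 ± 0.0128 (n = 3 lots) for UMIs and 1.25 ± 0.00465 for genes, both above 1 in 3 of 3 lots, and 0.929 ± 0.0224 for the mitochondrial share. The exact permutation test over paired lots gave p = 0.25 for each, the smallest that 3 pairs allow. A deeper cell is more likely to show 2 cycle genes, and a cell in G2 holds more RNA, and these cannot be told apart here. For this reason levels were also compared with non-cycling cells matched in depth, after thinning, and with the gates read on a random part of the UMIs and the levels on the rest, called count splitting.

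Mitotic genes were higher in members than in non-cycling cells. Its rise follows from the choice of the cells and is given as a description. All 16 mitotic kinases and cyclins, 29 of 30 spindle and kinesin genes (all but Stmn1), 17 of 17 kinetochore genes, 16 of 16 cytokinesis genes and 15 of 17 condensin and chromatin genes were called higher and none lower by edgeR at an adjusted p under 0.05, where 4.81% of all 12861 genes tested were called higher and 1.52% lower. The lists had median log2 fold changes of 4.15, 3.88, 3.32, 3.51 and 1.16, against -0.0031 over all genes tested. Plk1, the kinase of mitotic entry whose promoter is printed above, was at 87.0, 89.9 and 80.6 CPM in members of lots 26, 29 and 30. In non-cycling cells it was at 4.03, 3.54 and 3.45 CPM, a log2 fold change of 4.56 (SE 0.120). Cdk1, the kinase that drives mitosis, was at 205 ± 6.64 against 20.5 ± 0.319 CPM (3.33, SE 0.0958).

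Among the other members of these lists, Hmmr, a spindle protein, had the largest log2 fold change at 5.89 (SE 0.165), from 1.98 to 117 CPM. Nusap1 and Prc1, which bundle microtubules, differed by 5.46 and 5.14. Cenpf, a kinetochore protein, was at 474 ± 49.1 CPM in members and 13.4 ± 1.30 in non-cycling cells (5.16, SE 0.153), and Aurkb, the kinase of the chromosomal passenger complex, at 99.95 ± 8.75 against 2.91 ± 0.602. Casc5, the kinetochore scaffold now named Knl1, differed by 4.90 and the cytokinesis gene Anln by 4.51. In the condensin list the difference was 4.14 for Ncapg, 2.76 for Smc4 and 2.52 for Hmgb2. Foxm1 and Mybl2, transcription factors of the G2 program, were at 13.1 and 9.86 CPM in members against 1.32 and 2.00, with log2 fold changes of 3.37 and 2.30.

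**Figure D2:**
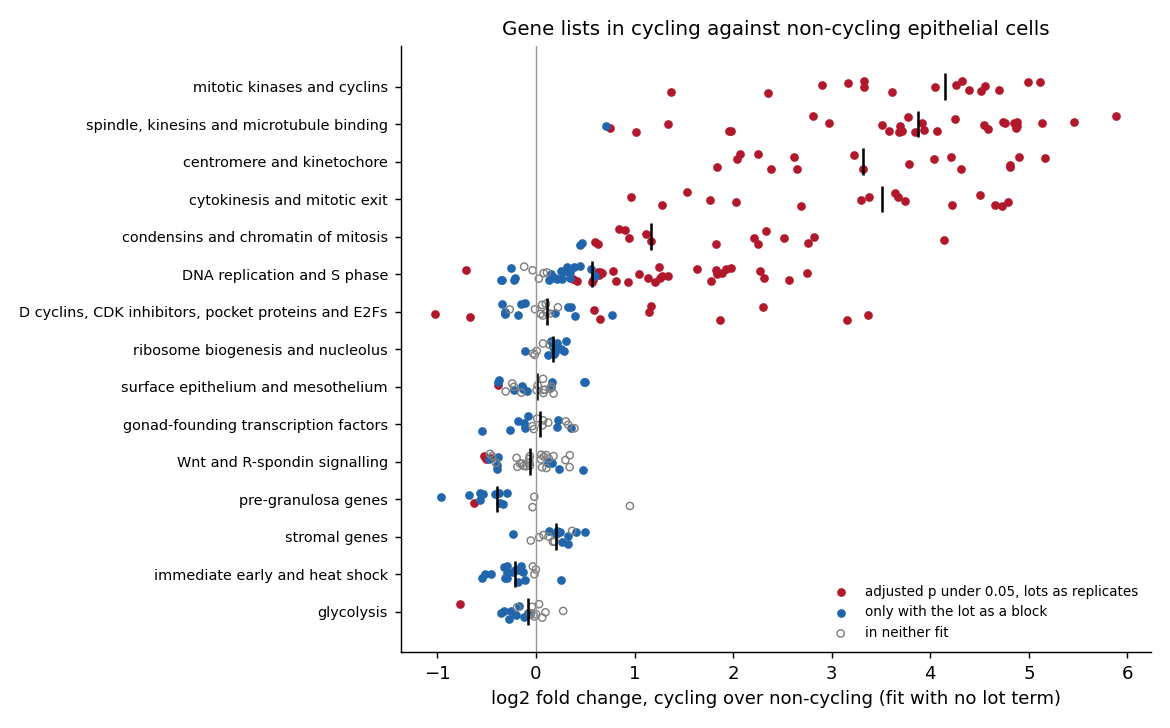
Log2 fold change (horizontal axis) of each tested gene in 15 lists, cycling over non-cycling epithelial cells, from the fit with no term for the lot. Each point is a gene, black bars are list medians, red points had an adjusted p under 0.05 in that fit, blue points did so only with the lot as a block. The mitotic lists lie far to the right, while the pre-granulosa list, with a median of -0.39, lies mostly left of 0.

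S phase genes were split. Of 55 replication genes tested, 29 were called higher and 1 lower, with a median log2 fold change of 0.57. Tk1, which makes thymidine monophosphate, differed by 2.31 (SE 0.159) and Rrm2, a subunit of ribonucleotide reductase, by 1.78 (SE 0.213). Pcna, the sliding clamp, differed by 0.37 only. Ung, the uracil glycosylase that acts at replication forks, went the other way. It was at 35.2, 35.6 and 40.3 CPM in members and 56.4, 64.1 and 61.7 in non-cycling cells, and fell by 0.71 on the log2 scale (SE 0.102, adjusted p = 0.00197).

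With the lot as a block, 18.7% of 13140 genes were called higher and 15.7% lower, and in the replication list 44 higher and 6 lower. The 6 included Ung and Mcm2, Mcm4 and Mcm6, the latter subunits of the helicase that is loaded before S phase. Mcm6 was at 154, 163 and 158 CPM in members and 195, 220 and 193 in non-cycling cells. The groups did not overlap, and the share of all genes without overlap was not counted. Its log2 fold change was -0.35 (SE 0.105, adjusted p = 0.0888) without the block and -0.34 (SE 0.0328, adjusted p = 4.16e-09) with it. Mcm4, with ranges of 75.1 to 92.2 and 96.1 to 126 CPM, gave -0.35 (adjusted p = 0.209) and -0.34 (adjusted p = 4.84e-07). These lower replication genes were noted after their values were seen.

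The clustered histone genes, another group noted after the values were seen, showed the opposite pattern. Of the 68 such genes in the tables, 58 were tested and 56 called higher, with a median log2 fold change of 2.30. Hist1h2af, at 94.3 ± 26.4 CPM in members and 2.79 ± 0.754 in non-cycling cells, had a log2 fold change of 5.15 (SE 0.293), Hist1h3b 4.33 (SE 0.307) and the linker histone Hist1h1b 3.22 (SE 0.268). Lots differed here, since Hist1h3b was at 149, 118 and 72.4 CPM in members of lots 26, 29 and 30. Replication-dependent histone transcripts mostly lack poly(A) tails and histone genes are near-identical copies, so their counts in a 3′ poly(A) assay of uniquely mapped reads are uncertain. Outside the lists, Esco2, which ties sister chromatids together, and Ska1, a kinetochore component, differed by 4.21 and 4.03.

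Levels of these programs were followed over cells with 0, 1, 2, 3, 4 and 5 cycle genes, without a test. This number counts detected genes, and cycle phase itself was not measured. The summed level of the 16 mitotic kinases and cyclins went from 241 CPM at 0 genes to 303 at 1, 490 at 2 and 2370 at 5 (means of 3 lots). Replication genes peaked in the middle, at 3473, 4078, 4901, 6439, 6372 and 4842 CPM, and clustered histones peaked at 4 genes, at 12873 CPM against 1296 at 0. Mcm6 stayed between 194 and 225 CPM up to 4 genes and was 115 at 5, and Ung went from 70.6 CPM at 3 genes to 18.8 at 5. Ccne2, the cyclin of S phase entry, peaked at 3 genes with 26.4 CPM, while Plk1 and Cenpf were highest at 5. Cells with 5 genes were also the deepest, at median depths of 20315, 16516 and 21227 UMIs in lots 26, 29 and 30, against 12085, 9101 and 12063 at 0 genes.

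**Figure D3:**
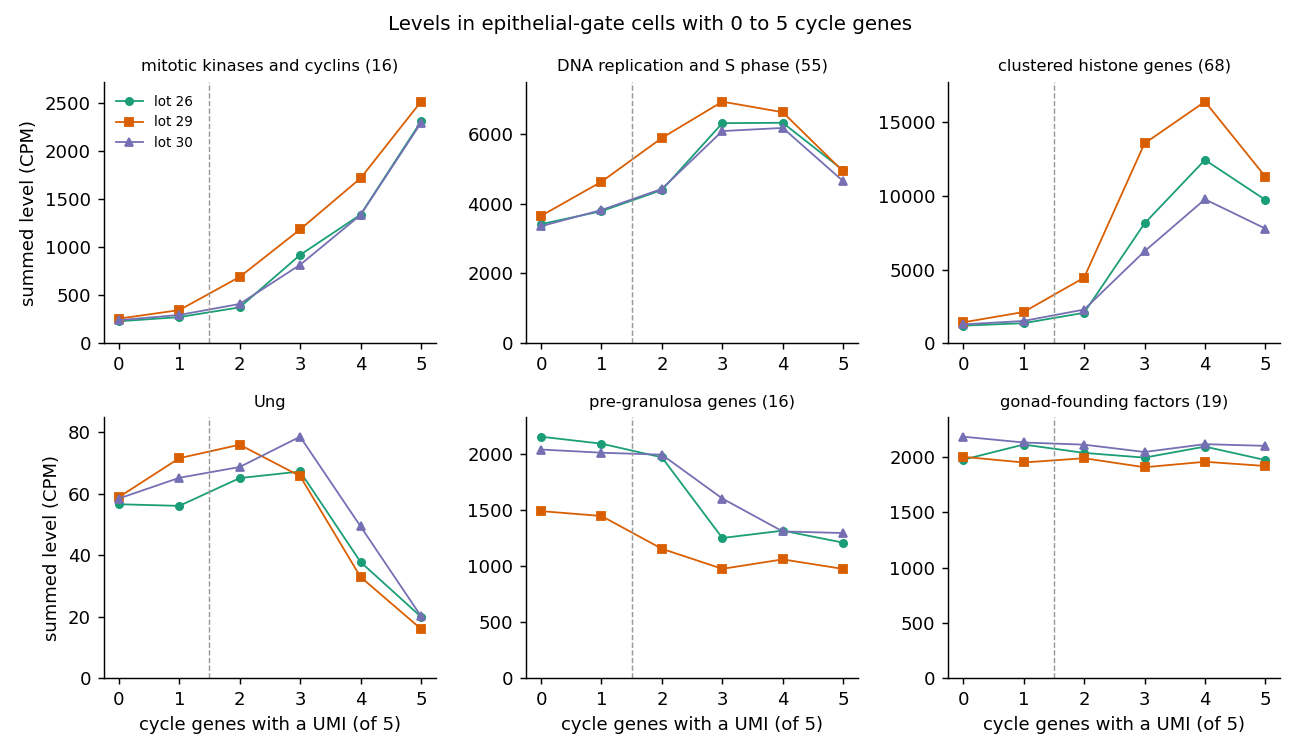
Summed CPM (vertical axes, from 0) of 5 gene lists and of Ung in epithelial-gate cells with 0 to 5 of the cycle genes (horizontal axis), 1 line per lot, with the threshold of the rule as a dashed line. Mitotic genes climb to 5 genes, replication genes and histones peak at 3 or 4, Ung is lowest at 5, pre-granulosa genes are lower from 3 genes on than at 0, and gonad-founding factors stay between 1980 and 2063 CPM in the mean.

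A late and an early group of members were then compared directly. Late members had UMIs of all of Ube2c, Ccnb1 and Cdc20 (462, 408 and 638 cells in lots 26, 29 and 30). Early members had UMIs of Top2a and Mki67 alone (26, 25 and 36 cells). The names late and early stand for this rule and not for a measured time. Late members were deeper, at median depths of 19911, 15722.5 and 20491.5 UMIs against 12049, 11261 and 14039 in early members. This comparison was not repeated with depth matching or thinning, and the part of depth in its differences was not tested. Of 11174 genes tested by edgeR, 1.32% were called higher in late members and 0.295% lower, and with the lot as a block 3.18% and 1.04% of 11699. None of the 55 replication genes was called higher and 16 were called lower in late members, and 27 were lower with the block. Early members were chosen for lacking Ube2c, Ccnb1 and Cdc20, so this difference is tied to the choice of the cells and is given as a description. Cdc6, which loads the replicative helicase, was at 35.4, 62.8 and 58.9 CPM in early and 9.07, 9.58 and 9.32 in late members, and fell by 2.46 on the log2 scale (SE 0.2495, adjusted p = 1.56e-05). Ung fell by 2.09 (SE 0.197, adjusted p = 7.45e-06), from 67.9, 89.3 and 99.95 to 20.1, 16.7 and 22.3 CPM. Mcm6 fell by 1.07 (SE 0.142, adjusted p = 0.00028), Ccne1 by 1.58, Ccne2 by 1.60 and Ccnd1, the cyclin of G1, by 1.0. Early and late values of each of these genes did not overlap between lots, and the share of all genes without overlap was not counted.

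Late members had more of the mitotic genes than early members, and since 3 mitotic genes defined them this is again a description. Aurka, the kinase of the centrosomes, had a log2 difference of 3.71 (SE 0.289), Cenpf 3.82, Nusap1 3.54, Plk1 3.14 and Cdkn3 3.50. H2afx, the histone variant phosphorylated at DNA breaks, differed by 1.91. Kpna2, an importin, differed by 3.65, and Sapcd2, a spindle orientation protein, had 0, 0 and 3.57 CPM in early members against 27.8, 28.9 and 31.8 in late ones. Cdkn2d, the CDK4 inhibitor p19, rose by 2.10 (SE 0.300, adjusted p = 0.000562), from 8.86, 9.92 and 12.49 to 41.4, 49.5 and 44.4 CPM. With the lot as a block 1 of 31 genes in the list of D cyclins and CDK inhibitors was higher in late members and 5 were lower. Of all genes tested with the block 3.18% were higher and 1.04% lower.

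Without the block, few surface epithelium genes were called between early and late members. Of 23 surface epithelium genes tested, Epcam, an epithelial adhesion molecule, rose by 1.64 (SE 0.363, adjusted p = 0.0296), at 20.7, 3.31 and 8.92 CPM in early members and 35.3, 34.0 and 29.2 in late ones, and none was called lower. Epcam values in early members rest on few UMIs, and the difference was largest in lot 29. Over all epithelial cells its mean level showed no steady course, at 27.6, 27.1, 21.5, 30.1, 22.5 and 31.9 CPM at 0 to 5 cycle genes. With the block Epcam was higher and Krt18 and Igfbp5 were lower, as were 2 of 16 gonad-founding factors, Zfpm2 and Tcf21, named after their values were seen, where 3.18% of all genes were higher and 1.04% lower. The gonadal factor Wt1 was at 348, 291 and 353 CPM in early and 296, 244 and 333 in late members (log2 difference -0.15, adjusted p = 0.769), and Lhx9 gave -0.10 (adjusted p = 0.859). Outside the lists, Cthrc1, a secreted protein, fell by 1.82 (adjusted p = 0.0314), Slfn9 by 1.37 (adjusted p = 0.00326) and Mxd4 by 0.85 (adjusted p = 0.0118). The early sums are small, and without any 1 lot the number of genes called lower was 10 to 16 in place of 33.

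Regulators of cycle entry differed in both directions between members and non-cycling cells. Cdkn1a, which encodes the CDK inhibitor p21, was at 39.5, 35.1 and 40.4 CPM in members of lots 26, 29 and 30 and at 75.2, 82.1 and 78.1 in non-cycling cells. It fell by 1.03 on the log2 scale (SE 0.0912, adjusted p = 5.18e-05). Ccnd2, a D cyclin, fell by 0.67 (SE 0.132, adjusted p = 0.0143), from 364, 277 and 341 to 231, 160 and 224 CPM. Mxd4, which antagonises MYC, fell by 0.79 (SE 0.104, adjusted p = 0.000948), while its relative Mxd3, a gene of S phase, was at 40.1 CPM in members and 1.82 in non-cycling cells (4.48, SE 0.140). Cdkn1a, Ccnd2 and Mxd4 were also called lower, with the lot as a block, after depth matching, thinning, count splitting and removal of doublets, with log2 fold changes of -1.14, -1.10, -1.07 and -1.12 for Cdkn1a. Those fits called 8.38%, 7.86%, 11.1% and 17.0% of all genes lower.

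In the whole list of 31 D cyclins, CDK inhibitors, pocket proteins and E2Fs, 8 were called higher and 2 lower, and 13 and 9 with the block. Of all genes tested 4.81% were higher and 1.52% lower, and 18.7% and 15.7% with the block. Cdkn2d rose by 1.14 (SE 0.140, adjusted p = 0.000587), from 14.5, 14.2 and 19.9 to 33.4, 38.5 and 36.3 CPM. Cdkn1c, the p57 inhibitor, was at 1473, 1300 and 1490 CPM in members and 1891, 1635 and 1796 in non-cycling cells, a log2 fold change of -0.31 that was called with the block only (adjusted p = 0.0659 without it and 1.15e-12 with it). Ccnd1 gave -0.35 (adjusted p = 0.0938) and -0.34 (adjusted p = 3.06e-06).

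Without the block, few surface epithelium genes were called between members and non-cycling cells. Of 24 tested, Krt18 was called lower and none higher, with a list median of 0.01. Krt18 was at 246, 210 and 222 CPM in members and 315, 295 and 276 in non-cycling cells and fell by 0.38 (SE 0.0913, adjusted p = 0.037). Its partner Krt8 gave -0.37 (SE 0.157, adjusted p = 0.219), with overlapping ranges of 76.9 to 116 and 99.8 to 156 CPM, and adjusted p = 1.44e-08 with the block. Igfbp5, an insulin-like growth factor binding protein, gave -0.38 (adjusted p = 0.072, and 1.5e-11 with the block), and Aldh1a2, which makes retinoic acid in mesothelium, gave 0.16 (adjusted p = 0.533, and 9.37e-05 with the block). With the block 4 of 25 were higher and 7 lower, where 18.7% of all genes were higher and 15.7% lower.

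Gonad-founding transcription factors were not called without the block. None of 18 passed in either direction, with a list median of 0.04, and 3 were higher and 6 lower with the block, beside 18.7% and 15.7% of all genes. Wt1 was at 303, 246 and 342 CPM in members and 305, 254 and 328 in non-cycling cells, with a log2 fold change of 0.01 (SE 0.122) and no call in either fit. Lhx9 was at 531 ± 33.5 against 574 ± 34.4 CPM (-0.11, adjusted p = 0.62 without and 0.000619 with the block), Emx2 at 199 ± 9.05 against 218 ± 8.21 (-0.12) and Nr5a1, which encodes SF1, at 45.1 ± 8.40 against 51.4 ± 9.91 (-0.18).

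In the Wnt and R-spondin list 3 ligands were lower in members. Of 36 genes tested these 3 were called lower and none higher, with a list median of -0.06, where 1.52% of all genes were lower. Wnt6 was at 203, 161 and 213 CPM in members and 309, 237 and 288 in non-cycling cells and fell by 0.52 (SE 0.115, adjusted p = 0.0261). Wnt9a fell by 0.50 (SE 0.119, adjusted p = 0.0362), with ranges of 14.7 to 18.9 and 19.9 to 27.3 CPM. Rspo1, the secreted activator of Wnt signalling that ovarian development requires, fell by 0.45 (SE 0.0846, adjusted p = 0.0107), from 172, 148 and 159 to 124, 106 and 120 CPM. The groups did not overlap for any of these ligands, which were named because they were called. The share of all genes without overlap was not counted. Values of the 3 ligands after depth matching, thinning or count splitting are not given here. Of the 195 genes called lower, these settings without the block repeated 82, 60 and 89 calls. With the block they repeated 158, 127 and 184.

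With the lot as a block 5 of 36 Wnt genes were higher and 7 lower, where 18.7% and 15.7% of all genes were. Among those lower were Wnt4 (-0.47, adjusted p = 0.0778 without and 4.25e-10 with the block) and the R-spondin receptor Lgr5 (-0.38, adjusted p = 6.12e-06 with the block), both named after their values were seen. Lgr5 was at 59.4, 30.0 and 51.3 CPM in members and 84.0, 34.3 and 66.3 in non-cycling cells, lower in 3 of 3 lots while the groups overlap. Where Upk3b had to have at least 2 UMIs, the blocked log2 fold change of Wnt4 was -0.17 and that of Wnt6 -0.38, and after removal of doublets they were -0.64 and -0.67.

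The list of pre-granulosa genes lay below 0 in members. Of 14 tested Fst was called lower and none higher, with a list median of -0.39, and with the block 12 of 15 were lower and none higher, where 15.7% of all genes were lower. Fst, which encodes the activin antagonist follistatin, was at 76.8, 64.4 and 93.1 CPM in members and 126, 94.5 and 143 in non-cycling cells and fell by 0.63 (SE 0.153, adjusted p = 0.0406). With 2 Upk3b UMIs required, the blocked Fst value was -0.02 (adjusted p = 0.806), and without called doublets it was -1.20. The difference was therefore not seen in cells with 2 or more Upk3b UMIs.

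Gng13, a G protein subunit enriched in pre-granulosa cells, varied between lots. It was at 335, 107 and 185 CPM in members and 654, 232 and 343 in non-cycling cells, so the groups overlap while it was lower in 3 of 3 lots. Its log2 fold change was -0.97 (adjusted p = 0.216) without the block and -0.97 (SE 0.0317, adjusted p = 3.87e-19) with it. Cited2, a cofactor of WT1, gave -0.56 (adjusted p = 0.207, and 8.93e-15 with the block), the transcription factor Irx3 -0.54 (adjusted p = 0.0802, and 1.22e-11) and Kitl, the ligand of the germ cell receptor KIT, -0.34 (adjusted p = 0.0996, and 2.77e-09). With 2 Upk3b UMIs required the blocked values of Gng13, Cited2 and Irx3 were -0.72, -0.46 and -0.29, each called lower where 12.3% of all genes were. The summed level of the list went from 1893 CPM at 0 cycle genes and 1848 at 1 to 1704 at 2, 1275 at 3 and 1159 at 5.

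**Figure D4:**
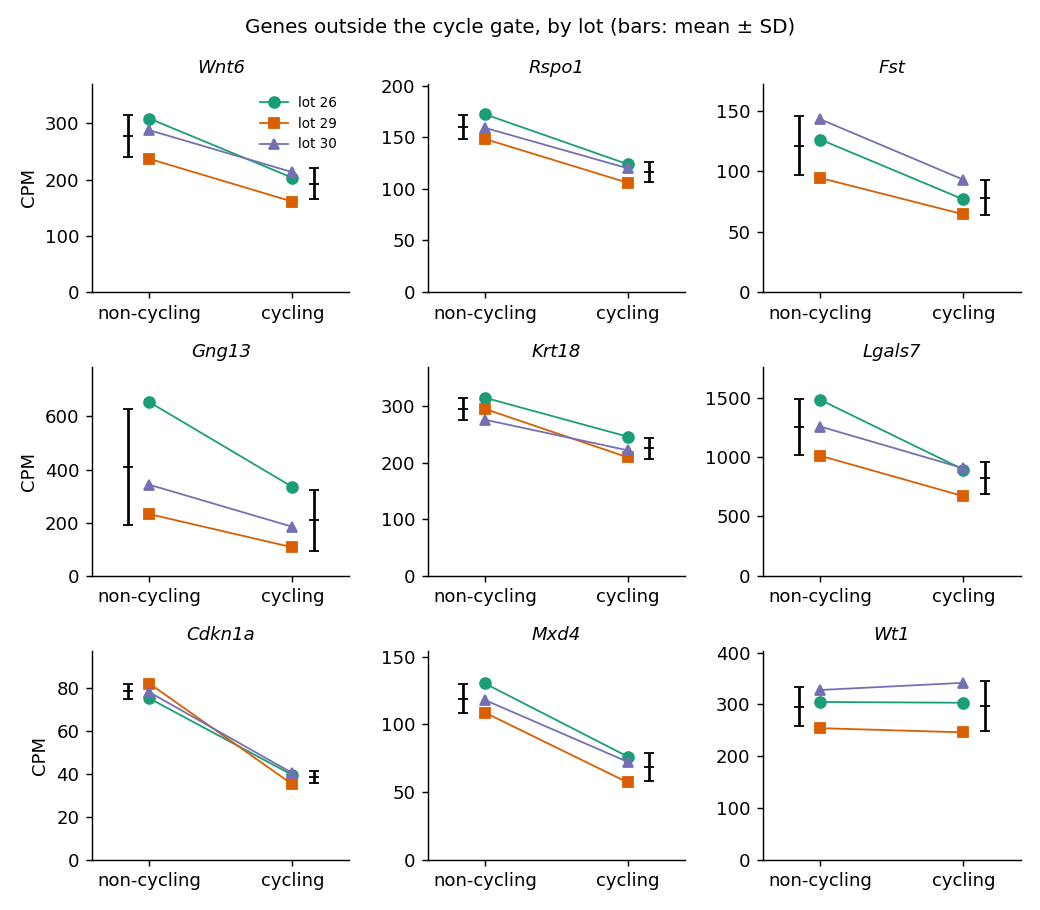
CPM (vertical axes, from 0) of 9 genes in non-cycling and cycling epithelial cells, 1 line per lot, with mean ± SD over 3 lots beside. Values are lower in cycling cells of every lot for Wnt6, Rspo1, Fst, Gng13, Krt18, Lgals7, Cdkn1a and Mxd4, and Wt1 stays at 297 against 296 CPM.

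Among stromal genes and genes of epithelial to mesenchymal transition, Zeb2 was the 1 gene called. None of 17 stromal genes was called (list median 0.21), and 9 were higher and 1 lower with the block, where 18.7% of all genes were higher. With the block, depth matching gave 4 higher and 0 lower, removal of doublets 5 higher and 1 lower, and thinning 1 higher and 2 lower of 15, with a median of -0.08. Depth matching and thinning called 10.6% and 10.3% of all genes higher. Pdgfra, a receptor of stromal progenitors, was at 53.7 ± 4.15 CPM in members and 45.4 ± 3.52 in non-cycling cells (0.25, adjusted p = 0.135, and 0.000599 with the block). Zeb2, a repressor of epithelial genes, rose by 0.49 (SE 0.121, adjusted p = 0.0415), from 26.4, 24.4 and 31.4 to 36.2, 35.0 and 44.5 CPM, and it was not called after depth matching (blocked adjusted p = 0.0802) or thinning (0.341). Vim, the intermediate filament of mesenchyme, gave -0.19 (adjusted p = 0.34).

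Ribosome biogenesis, stress and glycolysis genes were mostly called with the block alone. With it, 18.7% of all genes tested were higher and 15.7% lower, which is the background for each list here. No gene of the ribosome biogenesis list was called without the block, and 12 of 18 were higher and 1 lower with it. Ncl, which encodes nucleolin, was at 1377, 1387 and 1358 CPM in members and 1105, 1138 and 1142 in non-cycling cells (0.29, adjusted p = 0.0945, and 5.61e-12 with the block), and Npm1 gave -0.12. None of 19 immediate early and heat shock genes was called without the block, and 15 were lower and 1 higher with it. Their level depended on the lot, since Fos was at 617, 1106 and 1860 CPM in members of lots 26, 29 and 30 and 767, 1152 and 2078 in non-cycling cells, and Jun likewise ranged from 1454 to 3204 CPM in members. The small heat shock protein Hspb1 gave -0.55 (adjusted p = 0.27, and 3.25e-13 with the block). In the glycolysis list Aldoc, named after its value was seen, was the 1 gene of 19 called lower, and 9 were lower with the block. Aldoa was at 726 ± 49.98 against 910 ± 16.2 CPM (-0.32, adjusted p = 0.0776, and 5.92e-11 with the block) and Gapdh gave 0.03.

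Genes outside the lists also fell. Wfdc1, a secreted protease inhibitor, fell by 0.78 (adjusted p = 0.0489), Dcxr, which reduces sugars and carbonyls, by 0.71 (adjusted p = 0.00905), the lysosomal protease Ctsf by 0.69 (adjusted p = 0.00896) and the deacetylase Hdac11 by 0.63 (adjusted p = 0.014). Lgals7, a galectin of epithelia, and the metallothionein Mt1 were chosen after their values were seen. Lgals7 was at 894, 671 and 905 CPM in members and 1481, 1010 and 1256 in non-cycling cells and fell by 0.59 (SE 0.137, adjusted p = 0.0325). Mt1 fell by 0.58 (SE 0.148, adjusted p = 0.0485), from 800, 539 and 676 to 524, 353 and 461 CPM. The Notch target Hes1 was at 47.1, 45.6 and 123 CPM against 71.0, 55.6 and 161, higher in lot 30 than in the other lots in both classes, and was called with the block only (-0.41, adjusted p = 1.64e-07).

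Markers of other cells were present in both classes, at levels that differed by list. Their summed levels in the 3 lots ranged from 24.1 to 39.1 CPM in members and 33.9 to 46.6 in non-cycling cells for germ cell genes, from 96.2 to 128 and 97.4 to 105 CPM for endothelial genes, and from 2.86 to 38.8 and 5.17 to 17.6 CPM for myeloid genes. Red blood cell genes ranged from 111 to 336 and 85.1 to 340 CPM and Sertoli genes from 53.6 to 124 and 58.6 to 126 CPM. A UMI of a Y-linked gene was in 5.28%, 12.2% and 0.75% of members of lots 26, 29 and 30. In non-cycling cells it was in 2.25%, 6.14% and 0.21%. None of these lists had a called gene without the block. With it 4 of 7 endothelial, 3 of 9 myeloid, 3 of 5 red blood cell, 1 of 7 Sertoli and 2 of 4 Y-linked genes were higher in members, and 2 red blood cell, 1 Sertoli, 1 of 9 germ cell and 1 of 4 steroidogenic genes were lower, beside 18.7% and 15.7% of all genes. None of 4 mesonephric genes was called. Without doublets the blocked counts were 2 endothelial, 3 red blood cell and 1 Y-linked gene higher, and 1 red blood cell, 2 of 8 germ cell, 3 of 7 Sertoli (list median -0.39) and 1 steroidogenic gene lower, and none of 5 myeloid genes was called. Single genes could be lower than their lists, with Ddx4 at 1.52 CPM in members, Cdh5 at 2.29 and C1qa at 2.04. A UMI of an endothelial gene was in 73.5%, 62.5% and 72.4% of members of lots 26, 29 and 30. In non-cycling cells it was in 62.5%, 56.2% and 61.9%. For red blood cell genes the shares were 75.6%, 85.5% and 76.6% against 64.9%, 72.5% and 63.8%, and members were also the deeper cells. The part of these markers in the differences described was not tested.

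The same contrast was made in stromal-gate cells, with 2223 cycling and 2742 non-cycling cells, to see where members depart from another dividing cell type of these lots. Without the block edgeR called 0 of 13163 genes (0.0%) as differing in their cycling contrast between the gates, DESeq2 called 0, and 312 genes had an unadjusted p under 0.05. With the lot as a block 27 genes had a higher contrast in the epithelium (0.202% of 13392) and 59 a lower one (0.441%). Of the latter 22 were among the 59 clustered histone genes tested. Hist1h2ae had log2 ratios of CPM of 3.04, 3.08 and 2.62 in the epithelium of lots 26, 29 and 30 and 3.97, 3.59 and 3.86 in the stroma, a difference of -0.94 (SE 0.101, adjusted p = 4.12e-05). The values of the gates did not overlap, and the share of all genes for which this holds was not counted. Hist1h1d differed by -0.67 (adjusted p = 0.00699) and H2afx by -0.46 (adjusted p = 0.000691). Without the called doublets the block gave 36 genes with a higher contrast in the epithelium and 78 with a lower one, of which 17 and 52 were also called with them.

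A few genes outside the cycle had opposite signs in the gates. Cxcl12, a chemokine of mesenchyme, had log2 ratios of 0.65, 0.47 and 0.35 in the epithelium and -0.26, -0.33 and -0.50 in the stroma, a difference of 0.81 (SE 0.0860, adjusted p = 4.12e-05 with the block and 1 without it). Its mean levels were 41.7 CPM in cycling and 29.7 in non-cycling epithelial cells, and 94.3 and 121 in the stromal classes. Plagl1, an imprinted zinc finger gene, differed by 0.55 (adjusted p = 0.00772), also with positive ratios in the epithelium and negative ones in the stroma in every lot. Gng13 had log2 ratios of -0.97, -1.11 and -0.89 in the epithelium against -0.63, -0.39 and -0.67 in the stroma (difference -0.43, adjusted p = 0.00416), but without doublets the blocked difference was -0.24 (adjusted p = 0.144). Amhr2, the receptor of anti-Müllerian hormone, differed by 0.29 (adjusted p = 0.0164), with ratios below 0 in both gates. Cdk1 differed by 0.42 (adjusted p = 0.0129) and Mcm6 by -0.26 (adjusted p = 0.0114). These genes were picked once their values were known, and each call needs the block.

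**Figure D5:**
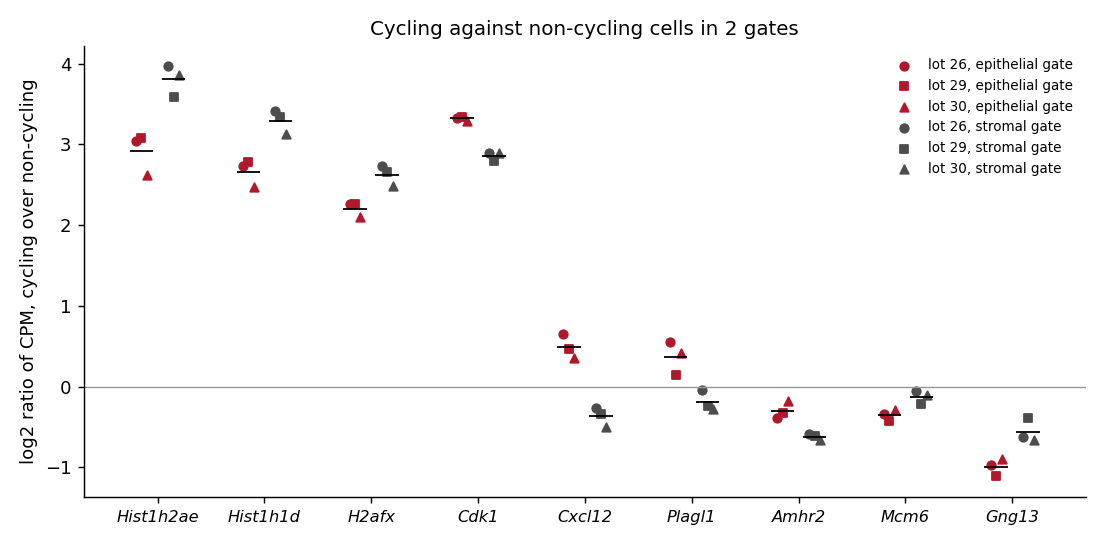
Log2 ratio of CPM, cycling over non-cycling cells (vertical axis), of 9 genes in the epithelial gate (red) and the stromal gate (grey), by lot (marker shape), with means as black lines. Ratios of the 3 histone genes are higher in the stroma, that of Cdk1 is higher in the epithelium, and Cxcl12 and Plagl1 have opposite signs in the gates.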

How the data were processed

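The authors deposited UMI counts per gene and cell, made with UMI-tools, alignment with STAR 2.7 to GRCm38 and featureCounts 2.0.1 of uniquely mapped reads, as their notes and methods give it. The annotation release and strand setting are not given in the sources used here. The 3 tables held 126680758, 87494974 and 141920060 UMIs in 9763, 8567 and 10773 barcodes of lots 26, 29 and 30, over 18738 genes. Cells with 200 to 9000 genes and at most 10% mitochondrial UMIs were kept, and doublets were called per lot with Scrublet in scanpy 1.11.5 but removed in an alternative only.

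UMIs were summed per lot and class. The main test was the quasi-likelihood test of edgeR 4.0.16 (R 4.3.3, TMM, filterByExpr) with no term for the lot, Benjamini-Hochberg adjusted p under 0.05 over all genes tested. The 10 gate genes were not tested. Alternatives were the lot as a block, DESeq2 1.42.0, other scalings and filters, other gates, depth matching and thinning to 4000 UMIs. Both classes of a lot come from the same pool of cells. Deviations of same-lot sums correlated at r = 0.485, 0.514 and 0.545 for cycling against non-cycling cells. For late against early members they correlated at 0.189, 0.198 and 0.184. The lots thus pair the sums, and the main test does not use this pairing. It called 618 genes higher and 195 lower in cycling cells, against 2463 and 2062 with the block.

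Genes were named by a rule: the gate genes, tested surface epithelium genes, up to 5 called genes at 20 CPM or more with the largest change per other list or else its 2 most abundant members, and the 10 largest rises and falls outside the lists. Names outside the rule were picked once their values were known, among them Foxm1, Mybl2, Rrm2, Pcna, Ccnb2, Cdk1, Cdkn1c, Irx3, Kitl, Emx2, Nr5a1, Pdgfra, Npm1, Fos and Hspb1. The members and lists were chosen with earlier results of these data known. The scripts were tested on simulated data. Some genes that the rule names are not reported here.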

Additional observations from a re-analysis of the deposited data

Results flagged for a closer look

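The difference between cycling and non-cycling cells was itself different in the epithelial and stromal gates for 9 named genes in the fit with the lot as a block. The test was the edgeR interaction term, which called 27 genes higher and 59 lower with the block. Without the lot term edgeR called 0 genes, with 312 at an unadjusted p under 0.05, and DESeq2 called 0. On the log2 scale, epithelium minus stroma, the difference was 0.81 for Cxcl12, 0.55 for Plagl1, 0.42 for Cdk1 and 0.29 for Amhr2. It was -0.94 for Hist1h2ae, -0.67 for Hist1h1d, -0.46 for H2afx, -0.43 for Gng13 and -0.26 for Mcm6. Each had the same sign in the fit without the lot term, where its adjusted p was 1. Depth differed between the classes in both gates, and its part in these differences was not tested.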

How the results depend on the processing

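With the lot as a replicate block, 2463 genes were called higher and 2062 lower in cycling cells, in place of 618 and 195, and all 618 and 195 were among them. Combined with the block, and chosen after seeing the data, the counts were 1666 and 1317 with count splitting, 1340 and 1056 with depth matching, 1050 and 801 after thinning, 2176 and 1876 for 3 of 5 against 0 of 5 genes, 2024 and 1565 with 2 Upk3b UMIs and 2468 and 2199 without doublets. Without the block, 371 were lower with doublets removed and 419 for 3 of 5 against 0 of 5 genes. Leaving out a lot gave 384 to 509 higher and 10 to 100 lower. There were 10 lower without lot 26, 100 without lot 29 and 11 without lot 30. Of the 195 genes called lower, 82 were called again with depth matching, 60 after thinning and 89 with count splitting. With the block these numbers were 158, 127 and 184. Values in these settings are printed for some of the named genes only.

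For late against early members the block gave 372 higher and 122 lower in place of 148 and 33, no low-count filter gave 279 and 68, DESeq2 gave 66 lower, and leaving out a lot gave 10 to 16 lower. Without doublets the block gave 413 and 153. The gate interaction gave 27 and 59 with the block, and 36 and 78 with the block and without doublets, in place of 0 and 0. The cycling share was 38.0% after thinning, 53.2% without doublets, 44.8% with 3 of 5 genes and 58.9% with 2 Upk3b UMIs. Without doublets the ratio of medians was 1.39 for UMIs and 1.23 for genes.

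The sign changed for Lhx9, to 0.096 with depth matching and 0.023 after thinning (0.077 and 0.022 with the block), and for Wt1, to -0.015 with count splitting and -0.062 after thinning (-0.012 and -0.061 with the block), with a range of -0.0208 (without lot 30) to 0.0206 over the lots left out. The cause was not tested. Other values of named genes kept their side of the threshold in 1376 cases, passed it in 222 and lost it in 83. Values of early members were limited by their few cells.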
